A study of Homo sapiens with 6 samples.

Results

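The nuclear receptors are ligand-regulated transcription factors, and 46 of their genes were listed for description in U373, a human glioblastoma cell line, measured on Affymetrix Human Genome U95 Av2 arrays. The members were the probe sets whose platform annotation named exactly 1 of these genes. They came to 77 probe sets for 39 genes, out of 8226 genes named by such probe sets on the array. The 7 listed genes without a probe set of their own were NR1D1, NR1H2, NR1H4, NR1I2, HNF4A, NR2F2 and NR0B1, and 2 probe sets shared by NR1D1 and THRA were left out.

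The series holds 6 arrays in 6 groups of 1 array. At day 1 there were untransfected cells without treatment, and syk-transfected cells that were untreated, given ethanol, or given ethanol together with ponasterone A (PonA) at 10 µM. At day 2 there were syk-transfected cells without treatment and cells given ethanol together with PonA. Both arrays called PonA in the following thus had ethanol too, and only PonA over ethanol at day 1 sets PonA apart from it. SYK encodes a tyrosine kinase, and PonA is a plant ecdysteroid that switches on transgenes in ecdysone-inducible expression systems such as the one the design names. The labels give a range of 6 to 48 hours of PonA for the series rather than the hours of each array, and they do not say which vectors were used or whether the transfected cells were 1 clone or a pool. There was no untransfected array with PonA, so a response to the ligand itself and a response to any induced SYK cannot be told apart. Without an ethanol array at day 2, PonA cannot be told from ethanol on that day.

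Most of these receptors bind DNA through a pair of zinc fingers and a lipophilic ligand through a separate pocket, and recruit coactivators or corepressors according to the ligand they hold. The retinoid X receptors (RXRA, RXRB, RXRG) are the shared partners of the retinoic acid, vitamin D, thyroid hormone, peroxisome proliferator-activated and liver X receptors, and of the insect ecdysone receptor as well, which is why ecdysone-inducible systems carry or rely on an RXR. Steroid receptors such as the glucocorticoid receptor instead bind DNA as pairs of the same protein.

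The values were MAS5 signals, a brightness per probe set, deposited by the authors with the same trimmed mean on every array, and the number of arrays limits the precision. Signals under the 40th percentile of an array, a floor between 22.7 and 26.5 signal units, were set to that floor, and a ratio against a floored value is a bound. On the floored log2 scale the arrays correlated at 0.946 to 0.985. The 3' to 5' signal ratio of GAPDH was between 0.94 and 1.04, and that of actin between 0.960 and 0.987 on the day 1 arrays and up to 1.21 on the day 2 arrays. Of 10 astroglial and glioma markers 6 lay above the floor on all arrays, among them GFAP, VIM and SOX9, and AQP4 on none. Their summed signal was 12640 in untransfected cells and 10750 to 12100 in transfected cells. Of 6 neuronal markers none was above the floor throughout and SNAP25 and GAD1 were under it everywhere, with a summed signal of 531 in untransfected cells and 76.3 to 115 in transfected cells. Of 5 haematopoietic markers only CD3E, of 4 oligodendrocyte markers MOG and MAG, and of 4 epithelial markers KRT18 were above the floor on all arrays. PTPRC, CD14, MBP, OLIG2, EPCAM and KRT19 were under it on every array. Of 3 SYK probe sets 1 gave 1.74 in untransfected cells and 14.4 to 22.2 in transfected cells without PonA, all under the floor. With PonA it gave 39.1 at day 1 and 72.5 at day 2. Another went the other way at day 1, with 73.1 untreated, 64.1 with ethanol and 56.35 with PonA. At day 2 that probe set was under the floor untreated and gave 35.2 with PonA. The last gave at most 6.50 and lay under the floor on all arrays.

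The untransfected array lay outside the range of the transfected arrays in part of the markers and in the spike-in signals. GFAP, the intermediate filament gene of astrocytes, gave 1533 there against 103 to 229 on the 5 transfected arrays. NEFL, a neuronal filament gene, gave 458 against 10.1 to 26.5, while the other neuronal markers gave at most 31.15 on any array. S100B, FABP7 and CHI3L1 were also highest on the untransfected array. VIM, CD44, SLC1A3, GLUL and SOX9 lay within the range of the transfected arrays. The geometric mean of the spike-in probe sets was 157 there and 271 to 501 on the transfected arrays.

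Part of the family gave signal above the floor, which by its definition holds 40% of all probe sets under it on each array. At least 1 array was above it for 43 of the 77 receptor probe sets, against 8654 of all 12558. Of the 77 probe sets 24 lay above the floor on all 6 arrays, 19 on between 1 and 5, and 34 on none. The 15 genes with a probe set above the floor throughout were RXRA, RXRB, RARA, RARB, RARG, THRA, PPARD, NR1D2, NR2E3, NR2F1, NR2F6, ESR1, ESR2, ESRRA and NR3C1. Where a gene has several probe sets, they are called first, second and so on in the order of their mean signal over the 6 arrays. The 14 genes under the floor on every probe set and array were PPARG, RORA, RORB, NR1I3, HNF4G, NR2C2, NR2E1, ESRRB, ESRRG, PGR, NR4A2, NR4A3, NR5A2 and NR6A1. These include the fat-cell receptor PPARG, the progesterone receptor and HNF4G. NR1H3, which encodes liver X receptor alpha, NR2C1 and the mineralocorticoid receptor gene NR3C2 exceeded the floor on too few transfected arrays to be tested. In all, 36 of the 77 probe sets entered the test, against 7934 of all 12558. They covered 22 genes, each with its brightest probe set, and the 41 untested receptor probe sets gave signals between 0.340 and 37.7.

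The question put to the 5 transfected arrays was which receptors differ with PonA. PonA was fitted with day as a second term in limma, with Benjamini-Hochberg adjustment over all 7934 tested probe sets. Effects are log2 differences ± SE from this fit, which sets 2 PonA arrays against 3 arrays without it, 1 of these with ethanol. The p-values measure the spread between arrays of different conditions and not between repeated cultures. RARB fell, VDR passed as higher, and no other receptor passed. VDR entered the test only through the PonA arrays, where it is high, and its controls were all under the floor, so its difference is a bound and its place in the count follows in part from the filter. With it the count was 2 of 36 receptor probe sets, or 5.56%, beside 5.07% of all tested probe sets, 2.7% higher and 2.37% lower. The receptor count lay near the background. In bulk RNA, fewer cells with a transcript and less of it per cell cannot be told apart.

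**Figure D1:**
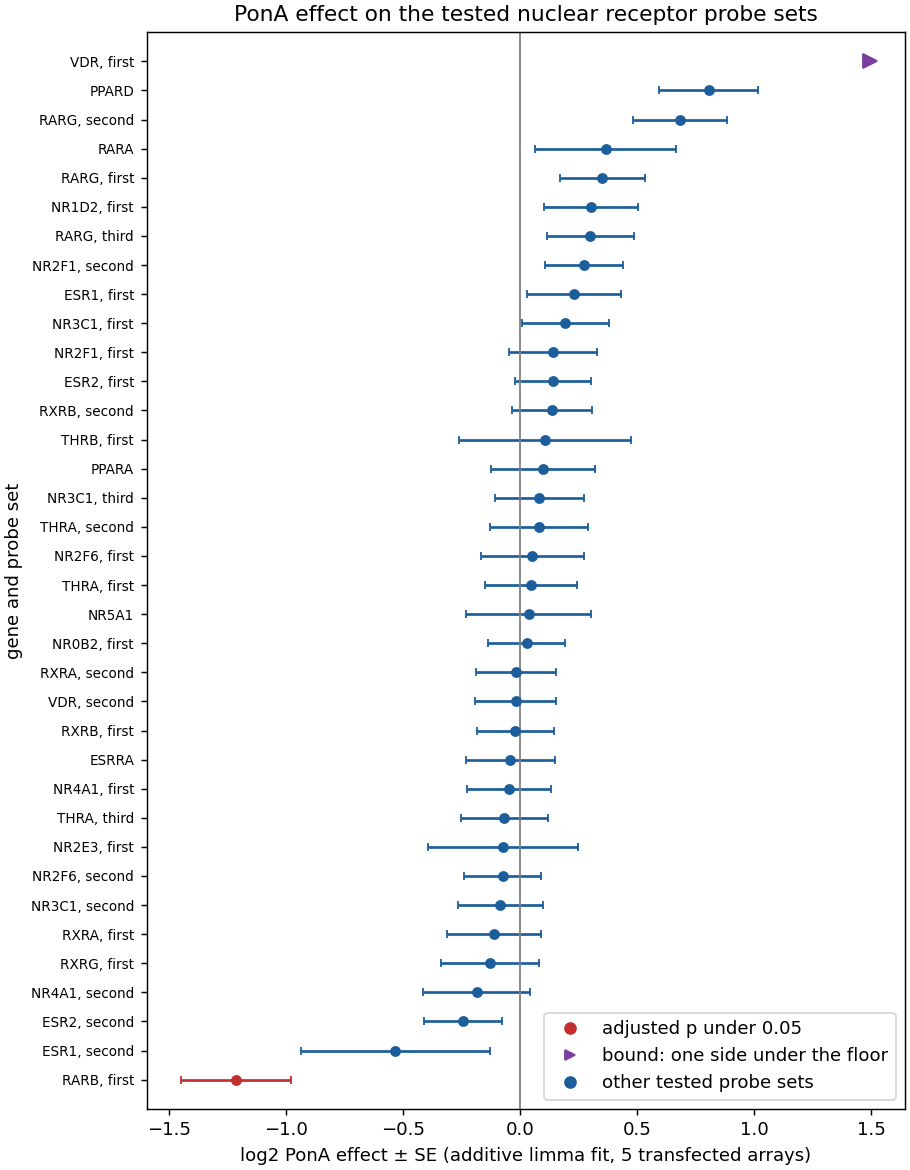
Log2 PonA effect (points) with its SE (bars) for each of the 36 tested receptor probe sets, ordered by effect. RARB at -1.21 is the red point past the adjusted threshold, VDR is drawn as an arrowhead without a bar because its controls lie under the floor and its value is a bound, and 31 of the 36 lie within 0.4 of 0.

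Receptor effects were mostly small. Their median was 0.05 against 0.01 over all tested probe sets, and the median size without sign was 0.12 against 0.22. Of the 36 effects 21 were positive and 15 negative. At an unadjusted p under 0.05 there were 4 receptor probe sets (VDR, PPARD and RARG higher, RARB lower), or 11.1%, against 19.5% of all, of which 10.5% higher and 9.02% lower. Both PonA arrays lay outside the range of the other 3 transfected arrays for 7 receptor probe sets, 6 above and 1 below, which is 19.4% against 32.8% of all tested probe sets, 16.7% above and 16.2% below. The 6 were 3 of RARG and 1 each of VDR, PPARD and NR2F1, and the 1 below was RARB. VDR is in both counts, and it entered the test only through its PonA arrays.

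RXRA was read by 2 probe sets that went opposite ways with transfection. The first of its probe sets gave 95.0 signal units in untransfected cells. In transfected cells it gave 653 untreated, 867 with ethanol and 640 with PonA on day 1, and 713 without and 739 with PonA on day 2. All 5 transfected arrays were thus high, at 6.73 to 9.12 times the untransfected array, and the PonA arrays overlapped the 3 transfected arrays without PonA. The second probe set went the other way. It gave 375 in untransfected cells, then 243, 255 and 265 untreated, with ethanol and with PonA on day 1, and 266 and 239 without and with PonA on day 2, or 0.637 to 0.710 times the untransfected array. Neither probe set passed the test for PonA, with effects of -0.11 ± 0.20 (adjusted p = 0.826, limma) and -0.02 ± 0.17 (adjusted p = 0.976, limma). The sign of both effects turned when single arrays were left out.

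The first RXRA probe set was the only receptor probe set at least 2-fold from the untransfected array on all 5 transfected arrays, 1 of 43 that could be judged. Of all probe sets 1.43% were, 0.67% higher and 0.763% lower. The comparison rests on a single untransfected array, which also lay outside the range of the transfected arrays in GFAP, NEFL and the spike-in signals. The part of these in the RXRA difference was not tested. The mean log2 difference of the first RXRA probe set over the 5 arrays was 2.92, and between 2.85 and 2.96 when 1 transfected array was left out.

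RXRB, the broadly expressed family member, varied little. Its first probe set gave 229 in untransfected cells, 231, 226 and 233 untreated, with ethanol and with PonA on day 1, and 226 and 213 without and with PonA on day 2. The effect was -0.02 ± 0.16 (adjusted p = 0.970, limma). The second RXRB probe set gave 79.6, then 87.0, 97.7 and 105 at day 1 and 74.7 and 78.4 at day 2 in the same order, with an effect of 0.14 ± 0.17 (adjusted p = 0.725, limma). The PonA array of day 1 was the highest of all 6, and that of day 2 lay among the others. RXRG, known from muscle and brain, stayed near the floor. Its first probe set gave 26.3, then 28.4, 37.7 and 22.5 at day 1 and 26.6 and 28.6 at day 2, with an effect of -0.13 ± 0.21 (adjusted p = 0.804, limma), and the second, under the floor throughout, gave 9.83, then 8.63, 19.0 and 11.0 at day 1 and 11.7 and 8.57 at day 2.

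**Figure D2:**
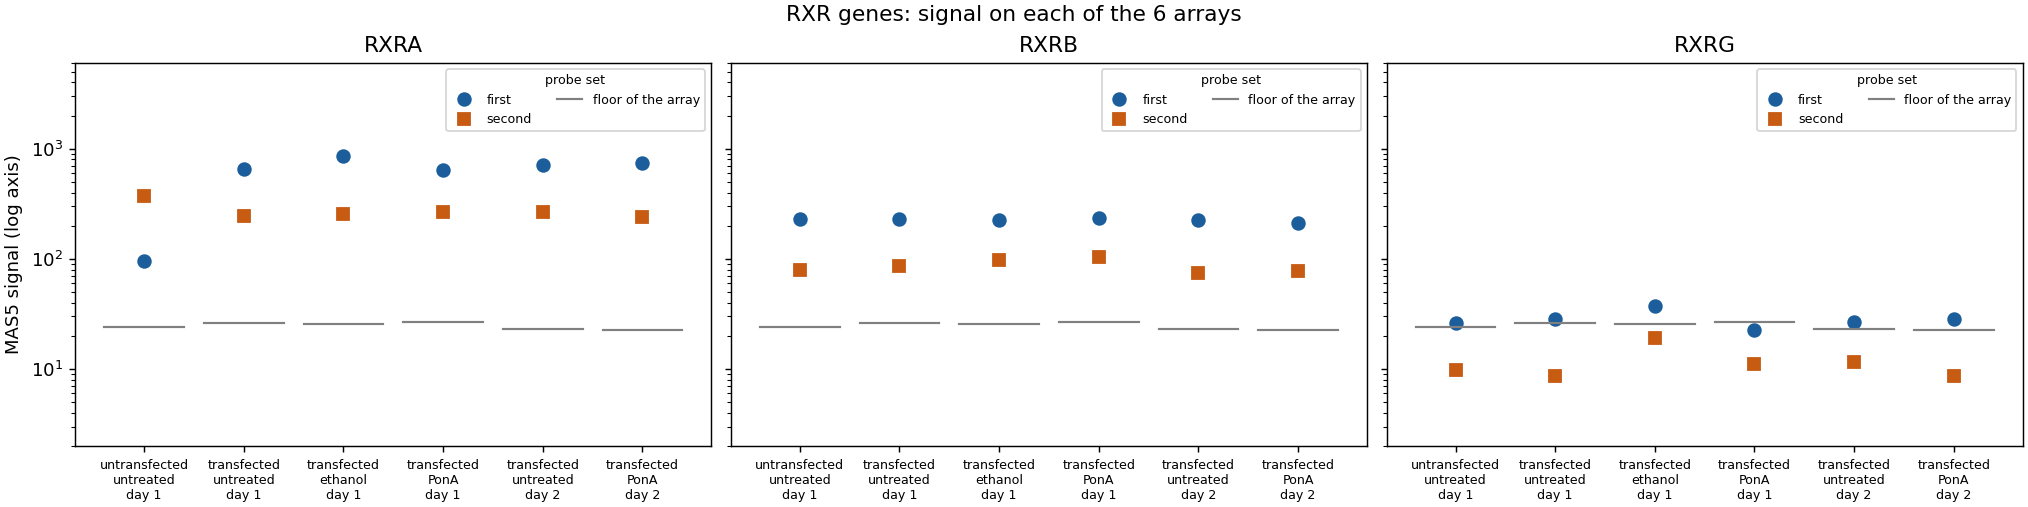
MAS5 signal (log axis) of the RXR probe sets on each of the 6 arrays, with the floor of each array as a grey line. The first RXRA probe set goes from 95.0 on the untransfected array to between 640 and 867 on the transfected arrays, while the second goes from 375 to between 239 and 266, and RXRB and RXRG show no such step.

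VDR encodes the receptor of the hormonal form of vitamin D, which binds DNA together with an RXR. The first of its 3 probe sets gave 6.15 in untransfected cells. In transfected cells it gave 14.5 untreated, 3.54 with ethanol and 70.0 with PonA on day 1, and 5.57 without and 68.9 with PonA on day 2. Both PonA arrays were high and close to each other, and all 4 arrays without PonA were under the floor. With the controls at the floor, VDR was at least 2.75-fold higher than with ethanol and at least 2.66-fold higher than untreated at day 1, and at least 2.97-fold higher than untreated at day 2.

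The probe set passed the threshold (adjusted p = 0.00652, limma), but it entered the test only through the PonA arrays, and its controls were set to the floor, so the p leaves out their spread and adds nothing to the bounds. Without either PonA array it was above the floor on 1 array and could not be tested. VDR was also the only receptor probe set that differed 2-fold or more in one direction in each of the 3 PonA comparisons, 1 of 43, beside 2.38% of all probe sets, 1.17% higher and 1.21% lower. Of these comparisons, both at day 1 share the PonA array of that day.

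The other VDR probe sets did not show this difference. The second gave 20.1 in untransfected cells, 29.7, 7.22 and 22.9 untreated, with ethanol and with PonA on day 1, and 25.5 and 25.9 without and with PonA on day 2, all close to or under the floor. Its effect was -0.02 ± 0.17 (adjusted p = 0.974, limma), and its sign turned under other treatments of low signals. The third lay under the floor everywhere, at 4.74, then 3.47, 3.29 and 10.4 at day 1 and 2.81 and 5.71 at day 2 in the same order. The VDR difference thus rests on 1 of 3 probe sets, and with the mean of each gene's probe sets no receptor gene passed in either direction.

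The retinoic acid receptors also pair with RXR, and RARB is a well known target of retinoic acid itself. Its textbook response element is a direct repeat before one of its starts, so the 250 bases before a RARB start (RefSeq, GRCh38.p14, chr3:25428013-25428262, plus strand) are printed with a direct repeat in capitals, beside the same stretch of PPARD (chr6:35342308-35342557, plus strand), a receptor whose signal stood above all arrays without PonA though it did not pass the test. The PPARD stretch holds no such repeat.
RARB: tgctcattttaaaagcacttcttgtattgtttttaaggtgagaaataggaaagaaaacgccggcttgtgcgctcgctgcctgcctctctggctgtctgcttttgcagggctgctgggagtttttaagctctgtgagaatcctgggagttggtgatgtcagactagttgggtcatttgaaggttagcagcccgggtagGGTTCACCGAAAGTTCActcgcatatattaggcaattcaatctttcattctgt
PPARD: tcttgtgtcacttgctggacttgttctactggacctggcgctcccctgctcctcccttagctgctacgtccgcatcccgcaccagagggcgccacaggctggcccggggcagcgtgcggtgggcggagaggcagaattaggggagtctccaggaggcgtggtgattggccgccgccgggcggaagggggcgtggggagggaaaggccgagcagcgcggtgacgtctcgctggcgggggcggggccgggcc

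The search took the hexamer AGGTCA and its variants, which are AGTTCA, then GGGTCA, and last GGTTCA, joined as direct repeats with 0 to 5 bases between them, on both strands. The RARB match is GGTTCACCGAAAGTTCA, with 5 bases between the hexamers, and its first base lies 53 bases before the start. It was found in 1 of 4 RARB windows. It was the only match in 96 windows of the 34 receptor genes with a window, against 168 of all 35116 windows, or 0.478%, and 26 windows, or 0.074%, for a spacer of 5. A single hexamer was present in 37 of the 96 receptor windows and in 33.8% of all windows. A match is a description of letters and not a measured site. The RARB element was known beforehand and the hexamers searched include both of its own. Its match was thus fixed in advance, and the shares of windows do not test it.

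RARB fell with PonA. Its first probe set gave 139.5 in untransfected cells, 140.9 untreated, 113.6 with ethanol and 68.6 with PonA on day 1, and 144.2 without and 45.9 with PonA on day 2. Both PonA arrays were below all 4 others. The signal with PonA was 1.65-fold lower than with ethanol and 2.05-fold lower than untreated at day 1, and 3.14-fold lower than untreated at day 2. The effect was -1.21 ± 0.24 (adjusted p = 0.0394, limma), number 128 from the bottom of all tested probe sets. The call was lost without the PonA or the untreated array of day 2, where both fits give the same day 1 estimate of -0.88. It was also lost at a lower floor or without a filter. The other RARB probe sets were under the floor on all arrays. The second gave 3.94, then 7.05, 15.8 and 15.3 at day 1 and 17.1 and 10.9 at day 2, and the third 6.23, then 4.73, 9.52 and 6.64 at day 1 and 7.45 and 4.18 at day 2.

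RARG, the form known best from skin, was higher with PonA than on the other transfected arrays on all 3 of its probe sets, without passing the test. The second probe set gave 60.6 in untransfected cells, 47.6, 45.4 and 89.2 untreated, with ethanol and with PonA on day 1, and 50.5 and 64.1 without and with PonA on day 2. Its effect was 0.68 ± 0.20 (adjusted p = 0.120, limma). The first gave 81.9, then 65.8, 74.2 and 98.4 at day 1 and 72.3 and 80.9 at day 2, with an effect of 0.35 ± 0.18 (adjusted p = 0.359, limma). The third gave 33.5, then 19.4, 21.4 and 27.7 at day 1 and 27.5 and 40.6 at day 2, close to the floor (0.30 ± 0.19, adjusted p = 0.450, limma). On each the 2 PonA arrays were the highest of the 5 transfected arrays, and the untransfected array lay between those 2 on the first and the last and below both on the second.

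RARA, the receptor rearranged in promyelocytic leukaemia, was read by 1 tested probe set. It gave 28.3 in untransfected cells, 26.4, 51.9 and 50.3 untreated, with ethanol and with PonA on day 1, and 34.6 and 41.6 without and with PonA on day 2. The ethanol array was about as high as the PonA array of the same day, at 1.97 times the untreated array. The PonA effect was 0.37 ± 0.30 (adjusted p = 0.581, limma).

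PPARD, the broadly expressed receptor for fatty acids, came nearest to the threshold without passing. Its probe set gave 338 in untransfected cells, 333 untreated, 458 with ethanol and 757 with PonA on day 1, and 365 without and 555 with PonA on day 2. Both PonA arrays were above all 4 others. The signal with PonA was 1.65-fold that with ethanol at day 1, 2.28-fold the untreated signal of that day and 1.52-fold the untreated signal of day 2. Ethanol alone was at 1.38-fold. The effect was 0.80 ± 0.21 (adjusted p = 0.0923, limma), and it passed without the ethanol array (0.90, adjusted p = 0.0380, limma). Without the other arrays in turn it did not pass, at 0.60 (adjusted p = 0.499, limma) without the PonA array of day 1, 0.66 (adjusted p = 0.103, limma) without the untreated array of day 1, and 0.96 without the PonA (adjusted p = 0.241, limma) or the untreated array of day 2 (adjusted p = 0.222, limma). PPARA, which drives fatty acid oxidation in liver, gave 17.2 to 42.9 with an effect of 0.10 ± 0.22 (adjusted p = 0.865, limma), and PPARG at most 8.96.

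**Figure D3:**
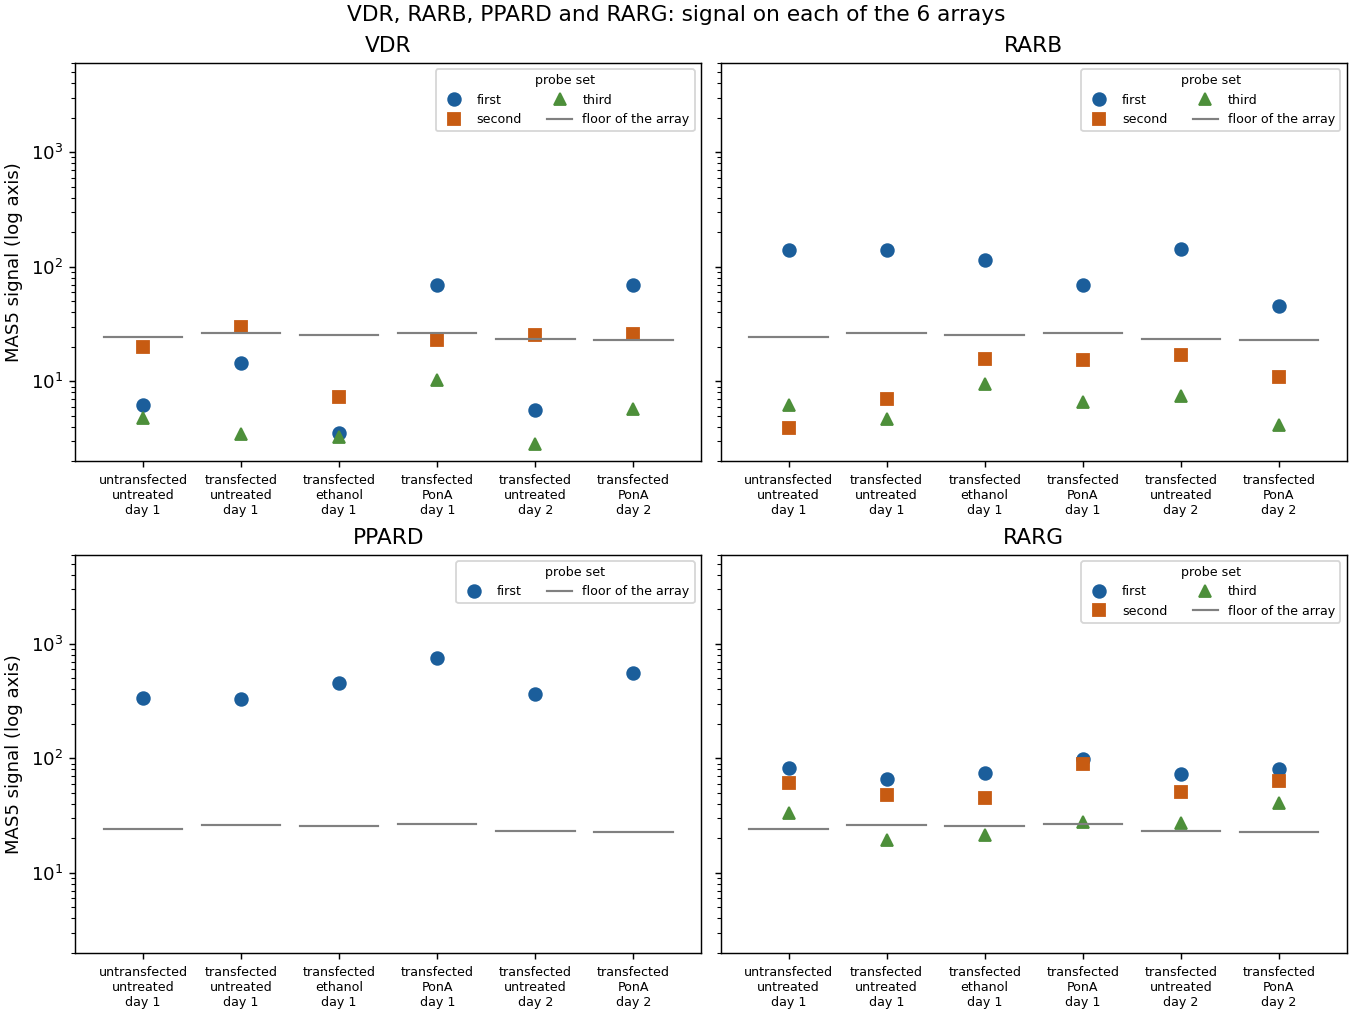
MAS5 signal (log axis) of each VDR, RARB, PPARD and RARG probe set on the 6 arrays, with the floor of each array as a grey line. The first VDR probe set reaches 70.0 and 68.9 with PonA and lies under the floor elsewhere, the first RARB probe set drops to 68.6 and 45.9, and PPARD reaches 757 and 555.

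The thyroid hormone receptors mediate the action of triiodothyronine. THRA, the form that predominates in brain and heart, gave on its first probe set 56.0 in untransfected cells, 122, 158 and 132 untreated, with ethanol and with PonA on day 1, and 83.1 and 96.7 without and with PonA on day 2. All transfected arrays were above the untransfected one, by 1.49-fold to 2.82-fold, and the PonA arrays lay among the others (0.05 ± 0.20, adjusted p = 0.929, limma). On the second THRA probe set the signal was 80.4 without transfection and 83.1 to 114 with it, and on the third it was 36.3 to 46.1. THRB, the form known from liver and pituitary, gave on its first probe set 31.5 in untransfected cells, 19.3, 28.0 and 48.1 untreated, with ethanol and with PonA on day 1, and 41.1 and 18.3 without and with PonA on day 2. It was high with PonA at day 1 and under the floor with PonA at day 2.

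NR1D2, which encodes the clock repressor REV-ERB beta, gave 44.4 to 70.7 on its first probe set, with its highest signal with PonA at day 1 and an effect of 0.30 ± 0.20 (adjusted p = 0.482, limma). The NR2 group, mostly receptors without a known ligand, had no call with PonA, and its 5 tested probe sets had effects between -0.07 and 0.27 and adjusted p-values of 0.442 to 0.934 (limma). NR2F1, the developmental repressor COUP-TFI, gave 118 to 171 on its first and 104 to 150 on its second probe set, with the untransfected array highest on both. NR2F6, its relative, gave 173 to 296 on its first and 114 to 192 on its second probe set. On the second the untransfected array was lowest, and on the first it lay within the range of the others. NR2E3, known as a photoreceptor gene, gave on its first probe set 112.5 in untransfected cells, 71.2, 57.3 and 40.7 untreated, with ethanol and with PonA on day 1, and 46.9 and 76.1 without and with PonA on day 2. A second NR2E3 probe set gave at most 8.36.

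The steroid receptor branch was read mainly through the glucocorticoid and estrogen receptors. NR3C1, the glucocorticoid receptor gene, gave 81.0 to 155 on its first probe set, 60.9 to 75.8 on the second and 20.1 to 35.9 on the third, and these 3 effects lay between -0.08 and 0.19 (adjusted p = 0.637 to 0.864, limma). ESR1, which encodes estrogen receptor alpha, gave on its second probe set 97.3 in untransfected cells, 65.5, 74.1 and 84.5 untreated, with ethanol and with PonA on day 1, and 76.5 and 25.0 without and with PonA on day 2. The 1 low value was that with PonA at day 2, 3.06-fold under untreated cells of that day, and the effect over both days was -0.53 ± 0.40 (adjusted p = 0.547, limma). Without the PonA array of day 1 the effect was -1.61, which is the day 2 difference of 1 array against 1 array. Without the PonA or the untreated array of day 2 it was 0.28, from day 1 alone. The first ESR1 probe set, at 91.8, then 82.4, 77.5 and 112 at day 1 and 72.7 and 67.7 at day 2, did not show so low a value (0.23 ± 0.20 over both days, adjusted p = 0.600, limma). ESR2, estrogen receptor beta, gave 61.9 to 81.9 on its first probe set, and ESRRA, an orphan relative that governs mitochondrial genes, 168 to 225 with its highest value with ethanol (-0.04 ± 0.19, adjusted p = 0.937, limma).

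The remaining receptors lay near the floor. NR4A1, an immediate early gene, gave 13.1 to 37.9 on its first and 18.1 to 39.0 on its second probe set. NR5A1, steroidogenic factor 1, gave 17.7 to 36.6 and NR0B2, a repressor that lacks a DNA-binding domain, at most 30.2 on its tested probe set. The effects of these 4 probe sets were between -0.19 and 0.04, with adjusted p-values of 0.724 to 0.965 (limma). Signals this close to the floor limit what change can be seen.

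Differences between single arrays use the same values that the fit pooled, so names shared with it add no separate support. At least 2-fold apart were 1 of 34 receptor probe sets for PonA over ethanol at day 1 (VDR; background 5.62%), 3 of 38 for PonA over untreated at day 1 (VDR, PPARD and RARB; background 6.71%) and 3 of 38 for PonA over untreated at day 2 (VDR, RARB and ESR1; background 8.71%). These counts have no replicate check. VDR enters each of them only through its PonA arrays, and its differences are bounds. For ethanol over untreated at day 1 none of 37 was 2-fold apart (background 2.18%), and for day 2 over day 1 without treatment none of 39 (background 3.19%). A lower floor raised the latter counts to 8 and 7. Between the PonA arrays of the 2 days 2 of 38, THRB and ESR1, were at least 2-fold lower at day 2 (background 2.93%, of which 2.05% lower).

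The difference of the PonA effects between days was fitted as a PonA-by-day term, and none of the 36 receptor probe sets passed (limma, Benjamini-Hochberg), as was the case for all 7934 probe sets. At an unadjusted p under 0.05 there were 4 receptors, or 11.1%, against 4.16% of all probe sets. The second ESR1 probe set had the largest term, -1.89 ± 0.40, and THRB had -1.68 ± 0.40, both with an adjusted p of 0.917 (limma). NR5A1 had -1.08 ± 0.39 and NR2E3 1.35 ± 0.42. The terms of THRB and NR5A1 are partly set by the floor, so the count of 4 leans on floored values. Both had the untreated array of day 1 and the PonA array of day 2 under it. For NR5A1 the ethanol array was under it too, so its SE leaves out the spread of the day 1 controls. The term of RARB was -0.77 ± 0.42 and did not pass, and VDR, with its controls under the floor, gives no measured term.

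**Figure D4:**
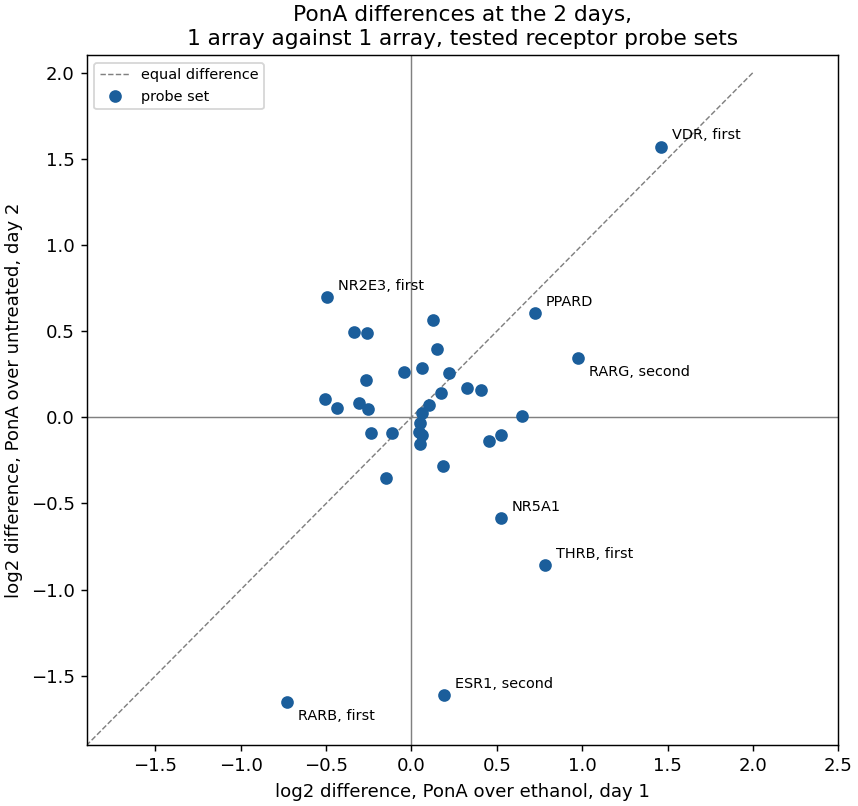
Log2 difference of PonA over ethanol at day 1 (horizontal axis) against PonA over untreated at day 2 (vertical axis) for the 36 tested receptor probe sets, 1 array against 1 array. VDR is high and RARB low on both axes, whereas THRB, at 0.78 and -0.86, changes side.

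Against the untransfected array, 2 of 37 receptor probe sets were at least 2-fold higher in transfected untreated cells at day 1, the first of RXRA and the first of THRA, beside 5.72% of all probe sets in either direction and 3.08% higher. THRA was under 2-fold at day 2, with ratios of 1.49 untreated and 1.73 with PonA. All 5 transfected arrays were above the untransfected one for 7 of 43 receptor probe sets and below it for 7, beside 22.4% and 21.2% of all. These shares lay under the background.

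**Figure D5:**
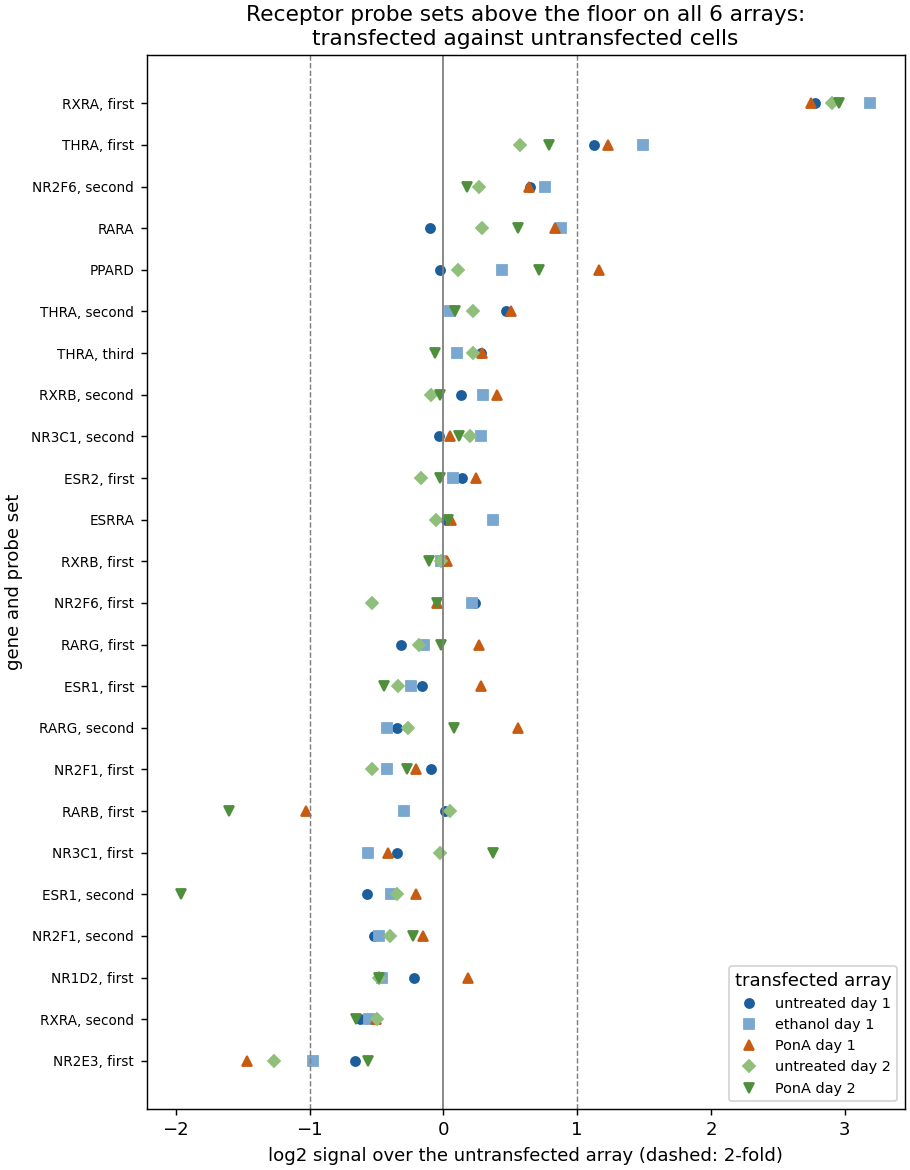
Log2 ratio of each of the 5 transfected arrays to the untransfected array for the 24 receptor probe sets above the floor on all 6 arrays, with dashed lines at 2-fold. The first RXRA probe set lies alone at the top, with ratios of 6.73 to 9.12, and the second lies left of 0 on all arrays.

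Genes that work with the receptors were counted from lists of coregulators, chaperones, ligand enzymes and targets. Each gene was counted once and the receptors were left out, which gave 3 called higher and 1 called lower of 75 tested genes, with a median effect of 0.01, beside 2.7% of all tested probe sets higher, 2.37% lower and 5.07% in either direction. No coactivator (0 of 14, median 0.03), corepressor (0 of 5, median -0.15) or steroid receptor chaperone (0 of 8, median -0.08) passed. Among coactivators the largest differences were those of the chromatin remodeller SMARCA2 (-0.76, adjusted p = 0.107, limma), the arginine methyltransferase PRMT1 (-0.41) and SMARCA4 (-0.40). Among corepressors they were TRIM24 (-0.33), HDAC3 (-0.29) and CNOT1 (-0.15), and among chaperones the immunophilin FKBP4 (0.44), PTGES3 (-0.34) and HSP90AB1 (-0.25).

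Of 12 ligand metabolism genes 1 rose, ALDH1A3, which makes retinoic acid from retinal, and the list median was 0.20. ALDH1A3 gave 103 in untransfected cells, 57.7, 55.7 and 116 untreated, with ethanol and with PonA on day 1, and 77.4 and 252 without and with PonA on day 2. Its PonA arrays were the highest of all 6 (1.32 ± 0.21, adjusted p = 0.0221, limma). The call was lost without the PonA or the untreated array of day 2, both leaving the same day 1 estimate of 1.03. Of 8 retinoic acid and RXR target genes on the array 5 were tested, of which 2 fell and none rose. Their median was -1.03 and all 5 were negative, beside 2.37% called lower and a median of 0.01 over all tested probe sets. The list was chosen with results of these data known. One of the 2 is RARB itself. The other was DHRS3, which returns retinal to retinol, at 907 in untransfected cells, 843, 760 and 406 at day 1 and 1118 and 377 at day 2 in the same order. Both PonA arrays of DHRS3 were below all others (-1.23 ± 0.20, adjusted p = 0.0238, limma). This call too was lost without the PonA or the untreated array of day 2, both leaving the same day 1 estimate of -0.98. CRABP2, the carrier of retinoic acid, had an effect of -1.03 ± 0.30 (adjusted p = 0.121, limma). Its signal on day 1 was 74.8 untreated, 46.9 with ethanol and 38.7 with PonA. On day 2 it was 115 without and 38.3 with PonA. TGM2 gave 178, 144 and 142, then 298 and 112 in the same order, so PonA hardly differed from ethanol at day 1. CYP26A1, near the floor, gave 19.6, 28.7 and 22.1, then 33.2 and 25.2. CRABP2 and CYP26A1 were counted in the ligand metabolism list as well.

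Vitamin D receptor targets did not pass: of 13 genes on the array 5 were tested, with a median of 0.15, led in size by SPP1 (-0.37), GADD45A (0.22) and IGFBP3 (0.22). Of 6 liver X and farnesoid X receptor targets SCD, the desaturase of fatty acid synthesis, rose (2.09 ± 0.16, adjusted p = 0.00395, limma). It gave 94.0, 93.0 and 413 at day 1 and 58.5 and 237 at day 2 in transfected cells. Of 9 glucocorticoid receptor targets DUSP1, a MAP kinase phosphatase, rose, at 122, 260 and 742 at day 1 and 205 and 819 at day 2 (2.03 ± 0.32, adjusted p = 0.0223, limma), while the list median was -0.02. The DUSP1 effect stayed at 2.00 without the PonA array of day 1, from day 2 alone. It was 2.06 without the PonA or the untreated array of day 2, from day 1 alone. In none of these fits did it pass. Without a filter the effects were the same and the calls of DUSP1 (adjusted p = 0.129, limma), ALDH1A3 (0.0866) and DHRS3 (0.0866) were lost, as they were at the lower floor (adjusted p = 0.103, 0.0977 and 0.106, limma). No target passed among 3 of the peroxisome proliferator-activated receptors (median -0.33, CPT1A at -0.54), 6 of thyroid hormone, REV-ERB and ROR receptors (median 0.09, CRY1 at -0.64, ME1 at 0.50) and 6 of estrogen and progesterone receptors (median 0.01, XBP1 at 0.25, EBAG9 at -0.20).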

How the data were processed

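RNA of 6 samples was measured on Affymetrix U95 Av2 arrays. The authors deposited MAS5 signal intensity per probe set (tool per the submitters' processing notes), on a linear scale with a trimmed mean of about 150.07 on every array. No detection calls were used here. The 67 control probe sets were left out of the fit. Probe sets were named from the platform annotation with symbols updated through Entrez IDs to RefSeq (10934 of 10943 with 1 symbol matched). 545 had several symbols and 1070 none, and no gene was named from these.

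Signals were floored at each array's 40th percentile and turned to log2. The 7934 probe sets that exceeded the floor on 2 or more of the 5 transfected arrays were fitted with PonA and day in limma 3.58.1 (R 4.3.3), with 2 residual degrees of freedom and a Benjamini-Hochberg threshold of 0.05. The PonA-by-day fit had 1 residual degree of freedom. Other comparisons are 1 array against 1 array, with no test. The alternatives tried were the floor, the filter, the offset, quantile normalization, the intensity trend, the day term and leaving out each array.

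The members, lists and tests were chosen with earlier results of these data known. Every member is accounted for. All 6 values are given for the RXR genes, VDR, members that passed or were 2-fold apart throughout, and genes whose probe sets disagree, and values of RARG, RARA, PPARD, THRA, THRB, NR2E3 and ESR1 were added after they were seen. The brightest probe set stands for a gene. Of other lists, genes that passed are named, or the largest differences where none passed. Probe set suffixes with a letter, such as s, f, g or r, mark probes that may be shared with other sequences or selected less strictly. Among the tested probe sets, the first of VDR and NR4A1 (g), of THRA and THRB (s) and of NR2E3 (r) carry one. So do that of RARA (s) and the second of RXRB, RARG and NR3C1 (s), NR2F6 (f) and ESR2 (r). Promoter sequences are RefSeq's on GRCh38.p14, for 34 of the 39 genes.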

Additional observations from a re-analysis of the deposited data

Results flagged for a closer look

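The first probe set of THRB, a thyroid hormone receptor gene, went opposite ways with PonA at the 2 days. It was higher than with ethanol at day 1 by 0.78 on the log2 scale and above untreated cells of that day by at least 0.87, and at day 2 the difference from untreated cells was -0.86, a bound since the PonA array of day 2 lay under the floor. The PonA-by-day term was -1.68 ± 0.40 (adjusted p = 0.917, limma), so the difference between days did not pass after adjustment. Each value comes from 1 array, and the signals were close to the floor.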

How the results depend on the processing

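No paired analysis was possible because the labels give no replicate numbers and each group holds 1 array. With the floor at the 20th percentile, which keeps more low signals, the receptors called higher stayed at 1 and those called lower went from 1 to 0, and those at least 2-fold apart from 1 to 2 (PonA over ethanol, day 1), 3 to 9 (PonA over untreated, day 1), 3 to 7 (day 2), 0 to 8 (ethanol over untreated), 0 to 7 (day 2 over day 1, untreated) and 2 to 5 (with PonA). Receptors at least 2-fold higher on all 5 transfected arrays went from 1 to 2, and genes of the other lists from 3 to 1 higher and 1 to 0 lower. With log2(signal + 16) in place of the floor, the ethanol count was 1, the count between PonA arrays 1 and the other lists' higher count 5. Quantile normalization gave 1 for ethanol. Without a filter the lower count was 0, and with an intensity trend the higher count was 2, PPARD joining at an adjusted p of 0.0262 (limma). With the mean of each gene's probe sets, 0 genes were higher and 0 lower. Leaving out 1 array gave 0 to 2 higher and 0 to 2 lower. Without the PonA array of day 1 the effects rest on day 2 alone. Without the PonA or the untreated array of day 2 they rest on day 1 alone. The adjusted p of RARB was 0.144 at the lower floor and 0.136 without a filter (limma). For the first VDR probe set the alternatives show only how the value follows the floor (log2 1.44 to 2.93), since its controls lie under it.

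Signs turned for effects that had not passed: the second VDR probe set was 0.33 at the lower floor and 0.15 with log2(signal + 16). Leaving out 1 array gave ranges of -0.070 to 0.043 for it, -0.23 to 0.052 for the first and -0.16 to 0.088 for the second RXRA probe set, -0.088 to 0.031 for the first of RXRB, -0.30 to 0.11 for the first of RXRG, -0.10 to 0.48 for the first and -1.61 to 0.28 for the second of ESR1. The cause was not tested. Over all probe sets 402 were called, 107 at the lower floor, 625 with the trend, 29 without a filter, and 111 to 725 without 1 array. Signal over background limits what can be seen of the 34 receptor probe sets under the floor on every array.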
